A study of Homo sapiens with 2 samples.

Results

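The genes described here are 10 effector genes that stood higher in BMP4-treated cells labelled GATA3 KO than in cells labelled WT: MFGE8, TENT5B, PRICKLE1, DRD4, ADRA2A, IDO1, GDPD2, CRB2, TTYH1 and FEZ1. They code for secreted, membrane, signalling, polarity, transport and enzyme proteins rather than for transcription factors, and were taken by symbol from the 33538 genes counted. They had been selected on their difference in UMI level between these same libraries, so their ratios are given as a description. The question addressed is how the 10 transcripts were spread over single cells, how they stood to SOX2 and NANOG, and whether their higher level lay within cells of equal SOX2 count or came from more cells rich in SOX2.

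The cells were H1, an established human embryonic stem cell (hESC) line, exposed for 48 h to 50 ng/ml bone morphogenetic protein 4 (BMP4) and profiled by droplet single-cell RNA-seq. The library labelled WT was made from unmodified H1 cells. The library labelled GATA3 KO was made from 1 clone, KO-GATA3-06, in which the zinc-finger factor GATA3 had been targeted in an H1 line carrying an inducible Cas9 cassette, so genotype, clone and cassette cannot be told apart. For the cells labelled WT, title and duration both state 48 h, which was followed here, although the deposited protocol text states 1 h.

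SOX2 and NANOG are transcription factors that maintain the pluripotent state. In the gastrulating embryo SOX2 is kept in epiblast and ectoderm and is lost from cells that enter the primitive streak, whereas NANOG persists into the early streak. BMP4 drives hESCs out of pluripotency, and GATA3, which binds GATA motifs, is among the factors it induces.

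Counts of unique molecular identifiers (UMIs), each standing for a captured transcript, were summed over kept cells and expressed as counts per 1000000 UMIs (CPM). The libraries labelled WT and GATA3 KO held 3802 and 6221 cells, of which 2519 and 4450 were kept, holding 99587274 and 175285931 UMIs. The median kept cell had 44415 and 43131.5 UMIs. Barcodes shared by both libraries numbered 8. GATA3 transcripts did not separate the labels among the kept cells, at 12.7 and 10.9 CPM (25.2 and 11.2 CPM in the cells removed), and counts from the 3′ end of a transcript cannot tell an edited coding sequence from an intact one. Summed over 7 primitive streak markers the level was 336.8 CPM in the library labelled WT and 14.8 CPM in the other. The 8 pluripotency markers summed to 2310 and 3142 CPM, with POU5F1 at 917.9 and 1480 CPM. SOX2, LIN28A, PRDM14 and ZFP42 also stood higher in the library labelled GATA3 KO, while NANOG, DPPA4 and TDGF1 stood lower. The 8 neural ectoderm markers summed to 165.2 and 167.6 CPM, mostly from ZIC2 at 146.7 and 126.1 CPM. OTX2 stood at 11.9 and 28.95 CPM and FEZF1 at 0.93 and 3.34 CPM, both with a log2 ratio of at least 1, and PAX6 and SOX1 at or below 0.15 CPM. Amnion or trophectoderm markers, also 8, summed to 52.6 and 76.0 CPM, with TFAP2A at 16.7 and 37.7 CPM. HAND1, KRT7, CDX2 and VTCN1 also stood higher in the library labelled GATA3 KO, while ISL1, GATA3 and GABRP stood lower. Since these markers differed between libraries, the 10 genes are also given by marker class. Each group was a single library, so no replicate spread exists, no test was made, and every interval covers counting error only.

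RefSeq gave a window of 250 bases before its own gene start for 9 of the 10 genes on GRCh38.p14, and IDO1 is named only. By the wider GENCODE gene bounds the windows of CRB2, GDPD2, PRICKLE1 and FEZ1 lie inside the gene, as does all but 5 bases of that of TTYH1 and 89 bases of that of MFGE8, so the matches of CRB2 and GDPD2 given next lie inside the annotated genes. Windows were searched on both strands for GATA letters (AGATAA or AGATAG and also TGATAA or TGATAG), SOX letters (ACAATG or ACAAAG) and TFAP2 letters (GCCNNNGGC). A GATA match was held by 22.9% of 27305 such windows in the genome, a SOX match by 21.4% and a TFAP2 match by 19.7%. Of the 9 genes, CRB2 held a GATA match, GDPD2 a SOX match, and MFGE8, TENT5B and DRD4 a TFAP2 match. PRICKLE1, ADRA2A, TTYH1 and FEZ1 held none of these letters. Sequences are shown for MFGE8, TENT5B and DRD4, whose levels differed between the SOX2-rich cells of the libraries, and for CRB2, whose level did not differ there beyond counting error and which alone held a GATA match. They are written 5′ to 3′ on the strand of the gene, capitals mark matches, and for MFGE8 the 89 bases that lie in annotated exons, which hold its other TFAP2 match, are left out. The positions are chr15:88913469-88913629 (minus strand) for MFGE8, chr1:27012851-27013100 (minus strand) for TENT5B, chr11:637019-637268 (plus strand) for DRD4 and chr9:123368529-123368778 (plus strand) for CRB2.
MFGE8: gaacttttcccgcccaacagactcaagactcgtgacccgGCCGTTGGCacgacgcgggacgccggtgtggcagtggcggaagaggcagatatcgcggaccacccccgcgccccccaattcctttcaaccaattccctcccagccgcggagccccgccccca
TENT5B: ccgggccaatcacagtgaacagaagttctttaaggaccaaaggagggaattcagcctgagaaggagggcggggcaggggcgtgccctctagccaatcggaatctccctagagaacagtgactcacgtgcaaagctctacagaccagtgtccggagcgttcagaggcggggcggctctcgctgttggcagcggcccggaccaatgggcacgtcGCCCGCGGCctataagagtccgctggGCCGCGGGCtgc
DRD4: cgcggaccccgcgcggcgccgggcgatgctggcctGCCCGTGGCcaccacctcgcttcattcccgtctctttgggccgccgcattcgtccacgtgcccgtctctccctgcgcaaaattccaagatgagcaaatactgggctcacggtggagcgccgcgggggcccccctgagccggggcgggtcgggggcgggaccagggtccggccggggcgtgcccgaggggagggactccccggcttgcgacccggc
CRB2: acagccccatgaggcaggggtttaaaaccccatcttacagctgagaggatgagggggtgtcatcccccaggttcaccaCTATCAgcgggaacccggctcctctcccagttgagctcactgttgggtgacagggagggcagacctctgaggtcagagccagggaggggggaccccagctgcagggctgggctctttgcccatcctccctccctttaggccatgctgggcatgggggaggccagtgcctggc

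In the GENCODE annotation of GRCh38 all 10 are protein-coding genes, on 9 chromosomes, so none but DRD4 and FEZ1 share one. The genes with the largest log2 ratios, after 1 CPM was added to each level, were MFGE8 (ENSG00000140545) on chromosome 15 from 88898683 to 88913468, TENT5B (ENSG00000158246) on chromosome 1 from 27005020 to 27012850, PRICKLE1 (ENSG00000139174) on chromosome 12 from 42456757 to 42590355 and GDPD2 (ENSG00000130055) on chromosome X from 70423031 to 70433390. The receptors were DRD4 (ENSG00000069696) on chromosome 11 from 637269 to 640706 and ADRA2A (ENSG00000150594) on chromosome 10 from 111077029 to 111080907. The others were IDO1 (ENSG00000131203) on chromosome 8 from 39902275 to 39928790, CRB2 (ENSG00000148204) on chromosome 9 from 123356170 to 123380324, TTYH1 (ENSG00000167614) on chromosome 19 from 54415219 to 54436904 and FEZ1 (ENSG00000149557) on chromosome 11 from 125442881 to 125592568.

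MFGE8, a secreted glycoprotein that bridges dying cells to integrins on phagocytes, was the most abundant of the 10 and stood at 99.5 CPM in the library labelled WT and 389.2 CPM in the library labelled GATA3 KO, 3.91-fold higher. TENT5B, a non-canonical poly(A) polymerase, went from 14.6 to 61.5 CPM (4.21-fold) and GDPD2, a membrane glycerophosphodiester phosphodiesterase, from 3.58 to 15.3 CPM (4.27-fold). PRICKLE1, a cytoplasmic protein of planar cell polarity, stood at 7.86 and 28.4 CPM. None of the intervals of these 4 genes met between libraries.

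DRD4, the D4 dopamine receptor, was rarely counted and stood at 1.63 and 6.21 CPM. IDO1, the enzyme of the first step from tryptophan to kynurenine, stood at 9.51 and 21.0 CPM. TTYH1, a membrane protein of the tweety family found in neural stem cells, stood at 12.2 and 24.5 CPM, and FEZ1, an adaptor that links cargo to kinesin motors, at 18.9 and 36.0 CPM. The fold was 2.21 for IDO1 and 1.90 for FEZ1, with TTYH1 between them. CRB2, an apical Crumbs protein needed for mesoderm cells to leave the mouse epiblast, was low in both libraries at 1.69 and 4.04 CPM. ADRA2A, the alpha-2A adrenergic receptor, hardly went with its label, at 1.47 and 1.87 CPM.

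On the scale used for ratios, the log2 of CPM after adding 1 CPM, the 10 genes had a median of 1.26, and all genes of at least 5 CPM had a median of 0.08. The scale understates ratios of low genes. Of the 10, 8 reached 5 CPM in the higher library, and 6 of these had a log2 ratio of at least 1 (MFGE8, TENT5B, PRICKLE1, DRD4, IDO1 and GDPD2), where 2.43% of all 9979 genes of that level did. This contrast chose the genes, so nothing is read from that count. Just inside that limit was IDO1 at 1.07 (95% interval 0.97 to 1.16), and just outside it were TTYH1 at 0.94 (0.86 to 1.03) and CRB2 at 0.91 (0.74 to 1.07). ADRA2A was at 0.22 (0.04 to 0.39), and its sign turned to -0.041 when CPM was averaged over cells. By the annotation, PRICKLE1, CRB2 and FEZ1 overlap protein-coding genes on the opposite strand (PPHLN1, DENND1A, and EI24 with STT3A), and whether the counting used strand is not given in the sources used here.

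**Figure D1:**
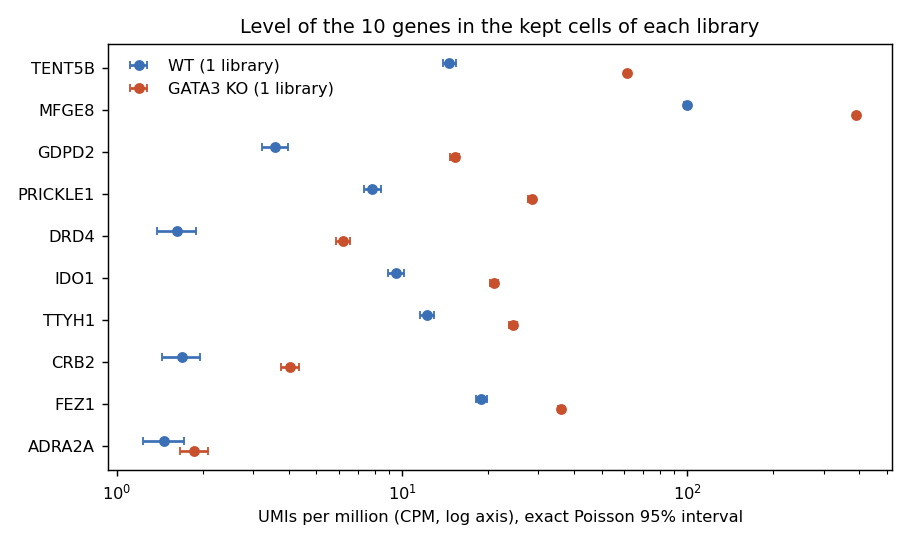
CPM on a log axis for the 10 genes, with 1 point per library and exact Poisson 95% intervals. Every gene stood higher in the library labelled GATA3 KO, from 1.27-fold for ADRA2A to 4.27-fold for GDPD2.

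Single cells were compared after each had been thinned to 10000 UMIs, which left 2173 cells labelled WT and 4038 labelled GATA3 KO. MFGE8 was counted in 55.6% of cells labelled WT and 92.6% of cells labelled GATA3 KO (82.1% and 94.9% before thinning). The whole distribution lay higher in the second library: cells with a UMI held 1.81 and 4.19 UMIs on average, and the highest cell held 9 and 18. TENT5B was counted in 13.7% and 44.2% of cells, PRICKLE1 in 6.53% and 21.0%, GDPD2 in 3.59% and 14.5%, and DRD4 in 1.79% and 5.97%. FEZ1 was counted in 14.5% and 28.3%, TTYH1 in 10.5% and 19.5%, IDO1 in 8.79% and 17.8%, and CRB2 in 1.79% and 3.64%. These genes mostly gave a single UMI per positive cell, with means of 1.01 to 1.38, and at such counts a higher level in every cell and more expressing cells cannot be told apart. For ADRA2A the share was 1.43% and 1.81%, a difference of 0.38 points (95% interval -0.33 to 1.03) that was not detectable at this depth.

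The variance of a gene's UMIs over cells divided by their mean, which is 1 for random sampling of 1 common level, was highest for MFGE8 at 1.61 and 1.95. It was 1.26 and 1.36 for PRICKLE1, 1.37 and 1.29 for FEZ1, and 1.30 and 1.20 for IDO1. In the plot of UMIs per cell MFGE8 had a single broad peak at 2 to 3 UMIs in the library labelled GATA3 KO, and the other 9 genes lay too close to 0 for groups of cells to show. A cell labelled WT held a median of 1 of the 10 genes and a cell labelled GATA3 KO a median of 2. At least 4 of them were counted together in 3.45% and 22.6% of cells, and none in 30.3% and 3.59%.

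**Figure D2:**
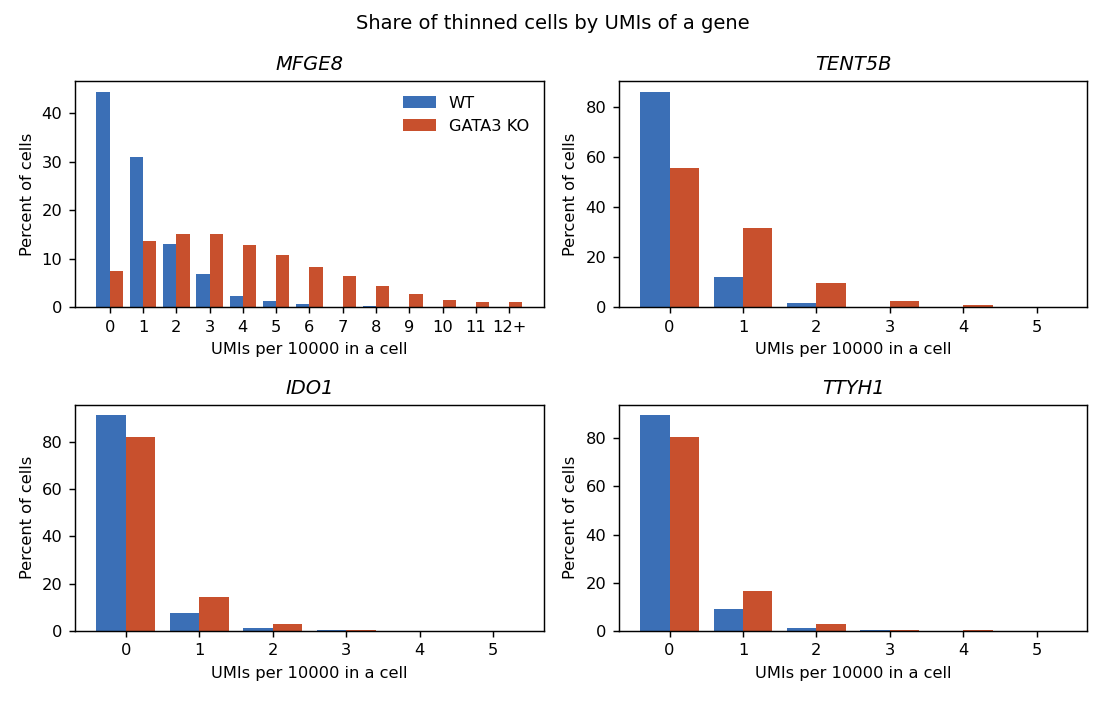
Percent of thinned cells by the UMIs of MFGE8, TENT5B, IDO1 and TTYH1 in a cell, with bars for each library. MFGE8 was at 0 in 44.4% of cells labelled WT and 7.38% of cells labelled GATA3 KO, while the other 3 genes were at 0 in most cells of both libraries.

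SOX2 itself stood at 149.5 and 388.6 CPM, and NANOG at 75.6 and 55.7 CPM, so the factors moved in opposite directions between libraries. Cells with at least 3 SOX2 UMIs of 10000, called SOX2-high here, made up 24.7% of the library labelled WT (536 cells) and 63.1% of the library labelled GATA3 KO (2547 cells), a difference of 38.4 points (36.0 to 40.7). The limit cuts a range and marks no cell type, since 482 and 1044 cells lay at 2 or 3 UMIs. Cells with no SOX2 UMI made up 45.2% and 13.3%. Of the SOX2-high cells 47.0% and 36.5% had a NANOG UMI.

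All 10 genes were positively related to SOX2 within each library. Across the kept cells of each library, Pearson correlations of log-normalised counts with SOX2 ran from 0.10 for DRD4 to 0.49 for MFGE8 in the library labelled WT, and from 0.13 for ADRA2A to 0.51 for MFGE8 in the other. With NANOG all 20 correlations lay below 0, between -0.13 and -0.02. They describe cells that share a library and differ in depth, and weak values in sparse counts are no finding. Each of the genes could therefore stand higher in the library labelled GATA3 KO either at equal SOX2 count or through its larger share of SOX2-high cells, and the genes differed in this respect.

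In SOX2-high cells MFGE8 stood at 170.7 CPM in the library labelled WT and 446.0 CPM in the library labelled GATA3 KO, with a log2 ratio of 1.38 (1.28 to 1.48). TENT5B stood at 26.3 and 70.0 CPM (1.38, 1.14 to 1.63), PRICKLE1 at 10.6 and 35.4 CPM (1.65, 1.29 to 2.02), and GDPD2 at 7.09 and 19.8 CPM (1.36, 0.93 to 1.81). DRD4 stood at 2.80 CPM, from only 15 UMIs, and 7.97 CPM (1.24, 0.64 to 1.83). FEZ1 was also higher among these cells, at 27.8 and 48.4 CPM, with a ratio of 0.78 (0.54 to 1.03). All 6 intervals lay above 0.

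The other 4 genes differed less between SOX2-high cells of the libraries, and only for TTYH1 did the interval lie above 0. IDO1 stood at 25.4 and 27.8 CPM, a log2 ratio of 0.12 (-0.13 to 0.39), and TTYH1 at 23.9 and 30.4 CPM (0.33, 0.07 to 0.60). CRB2 stood at 5.60 and 4.71 CPM (-0.21, -0.71 to 0.31) and ADRA2A at 3.36 and 2.43 CPM (-0.34, -0.94 to 0.27), both within counting error. The sign for CRB2 turned under 3 alternatives, to 0.42 with 20000 UMIs per cell, 0.28 with 5000 and 0.26 for cells with at least 1 SOX2 UMI, and that for IDO1 under 1, to -0.050 for cells with at least 6. SOX2 itself stood at 434.9 and 556.7 CPM in SOX2-high cells (0.36, 0.29 to 0.42), so the cells were not matched in full, and among cells with 3 to 5 SOX2 UMIs, an alternative added after the values were seen, TTYH1 was at 0.18 and MFGE8 at 1.33. The median over the 10 genes was 1.01 and that over all genes of at least 5 CPM in these cells 0.01. Of the 9 of the 10 genes at that level 5 had a log2 ratio of at least 1, where 2.08% of all genes did. SOX2-high cells are a subset of the cells that chose the 10 genes, so that count is a description too.

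Cells without a SOX2 UMI gave another order. MFGE8 stood at 60.0 and 195.2 CPM (log2 ratio 1.68) and TENT5B at 8.95 and 38.7 CPM (1.99), and their ratios were thus no smaller here than among SOX2-high cells. GDPD2 stood at 0.81 and 4.09 CPM (1.49, 0.74 to 2.10). PRICKLE1 stood at 4.78 and 7.25 CPM (0.51, -0.043 to 1.06), with an interval that spanned 0, and FEZ1 was lower in the library labelled GATA3 KO, at 12.0 and 6.88 CPM (-0.72, -1.22 to -0.24). The other 5 genes had intervals that spanned 0. Of the 5 of the 10 genes that reached 5 CPM, 2 had a log2 ratio of at least 1, where 5.22% of all genes did, and the medians were 0.43 over the 10 genes and 0.06 over all genes of that level.

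Over 8 strata of SOX2 count, from 0 to 8 or more UMIs, MFGE8 and TENT5B stood higher in the library labelled GATA3 KO in all 8, with intervals that did not meet in any. MFGE8 rose with SOX2 from 60.0 to 233.3 CPM in the library labelled WT and from 195.2 to 522.1 CPM in the other, so that its level in cells of 1 SOX2 UMI labelled GATA3 KO (326.5 CPM) exceeded that in the highest stratum labelled WT. PRICKLE1 was higher in all 8 strata, with intervals apart in 6, and GDPD2 in all 8 with 5 apart. DRD4 was higher in all 8 with none apart. FEZ1 was steeper in the library labelled GATA3 KO: lower at 0 SOX2 UMIs, with intervals apart, and higher in the other 7 strata, 4 of them apart. IDO1 climbed from 2.14 to 37.0 CPM in the library labelled WT and from 3.53 to 33.1 CPM in the other, with no stratum apart, and TTYH1, CRB2 and ADRA2A had none apart either.

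**Figure D3:**
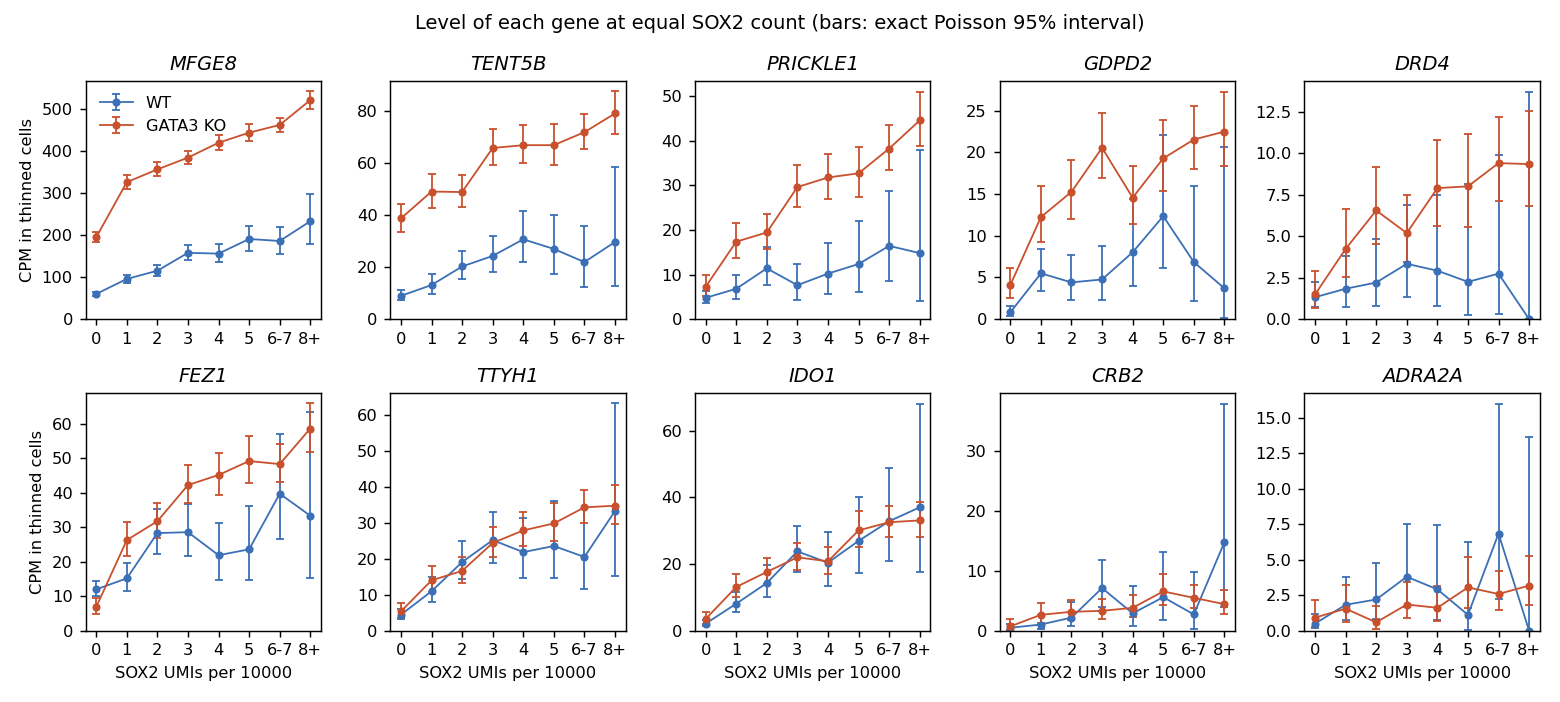
CPM of each gene in thinned cells by SOX2 UMIs per 10000, with exact Poisson 95% intervals and 1 line per library. The intervals for MFGE8 and TENT5B are apart in all 8 strata, and the intervals for IDO1 and TTYH1 overlap in all 8.

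The difference of mean level between libraries was then split exactly into the part that arises from levels within SOX2 strata and the part that arises from the shares of the strata. For TENT5B 79.8% of the rise lay within strata (75.7 to 83.8%), for MFGE8 75.2% (73.5 to 77.0%), for DRD4 70.3% (60.7 to 79.9%), for GDPD2 69.5% (62.8 to 76.3%) and for PRICKLE1 65.3% (58.8 to 71.8%). FEZ1 lay between, with 43.0% (31.8 to 54.2%). These intervals take the strata as given and do not cover the random thinning. With another thinning seed MFGE8 was at 72.1% and PRICKLE1 at 58.2%, both outside their intervals, while TENT5B, DRD4, GDPD2 and FEZ1 stayed inside. For TTYH1 the share was 24.0% (4.04 to 44.1%) and for IDO1 11.9% (-10.7 to 34.5%), so at this depth most of their rise came with the larger number of SOX2-rich cells. With 5000 UMIs per cell this did not hold for TTYH1, whose share within strata was 65.6%, while IDO1 was at 25.3%. CRB2 gave -15.9% (-99.9 to 68.1%), too wide to place. ADRA2A was not split, because its thinned difference did not exceed counting error (log2 ratio 0.13, -0.25 to 0.50).

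At least 50% of the rise lay within strata for 5 of these 9 genes, where 97.8% of the 226 genes with a log2 ratio of at least 1 had that. IDO1, TTYH1 and CRB2 did not themselves pass that limit in thinned cells (log2 ratios 0.98, 0.89 and 0.63). The sets are thus unlike, both in this count and in the medians that follow. Of the genes that did pass, only FEZ1 lay under 50%. The 9 had a median of 65.3% and the 226 genes a median of 91.7% (quartiles 75.0 and 102%). All 9 values lay under the latter median. The same contrast chose the 10 genes, so nothing is read from the count. A few SOX2 UMIs place a cell only roughly. With SOX2 strata taken from full-depth counts, an alternative added after the values were seen, the share within strata was 72.7% for TENT5B, 67.4% for MFGE8, 59.1% for DRD4, 57.5% for GDPD2, 49.1% for PRICKLE1, 18.1% for FEZ1, 5.43% for TTYH1 and -29.4% for IDO1.

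**Figure D4:**
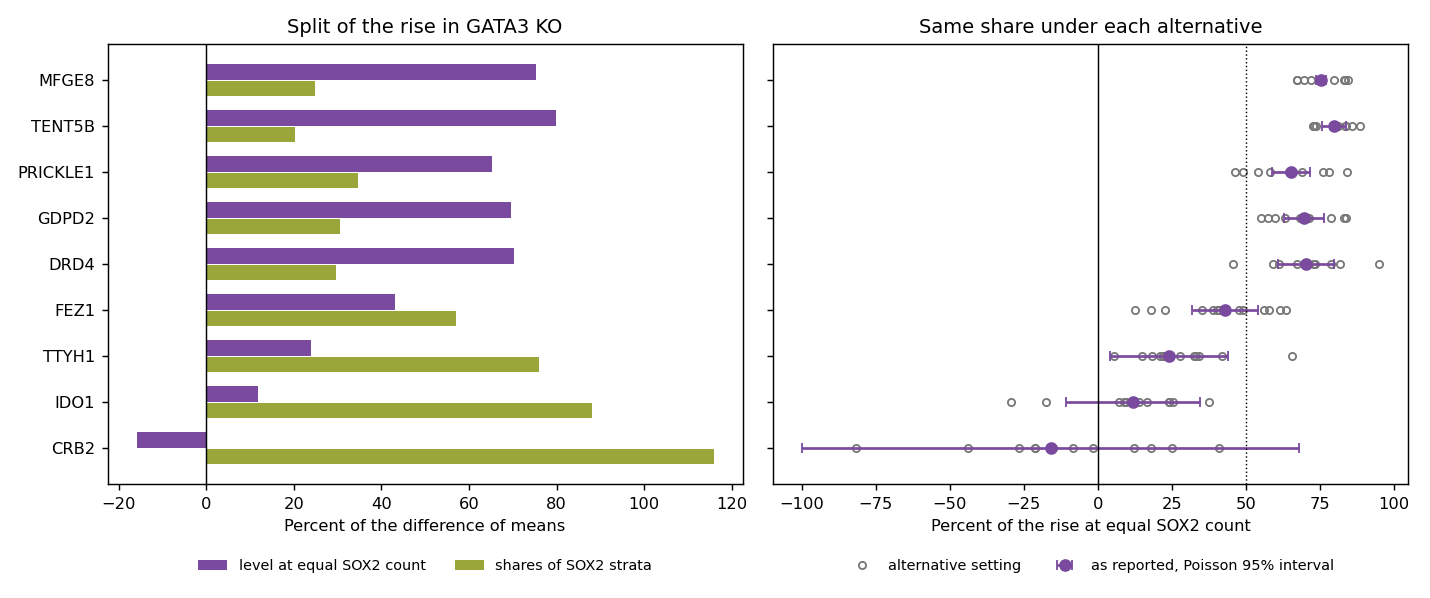
Left, percent of each gene's difference between libraries that lay within SOX2 strata or came with the shares of the strata; right, the percent within strata as reported with its 95% interval and under each alternative setting. TENT5B and MFGE8 stay above 50% under every setting shown, and IDO1 stays below 50%.

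Cells were also parted by other markers, in 6 classes that were taken in turn: a UMI of the streak genes MIXL1, EOMES or TBXT, a UMI of HAND1 or ISL1, SOX2-high with and without NANOG, and the remaining cells with 1 to 2 or 0 SOX2 UMIs. Streak-marked cells made up 45.2% of the library labelled WT and 6.04% of the other, and median depths of the classes ran from 42732 to 48289 UMIs. MFGE8 was higher in the library labelled GATA3 KO in all 6 classes. In streak-marked cells it stood at 59.1 and 213.1 CPM and in HAND1- or ISL1-marked cells at 46.7 and 183.5 CPM. TENT5B was likewise higher in all 6, with 8.95 and 31.2 CPM in streak-marked cells and 16.0 and 38.1 CPM in HAND1- or ISL1-marked cells. PRICKLE1 stood at 4.78 and 4.92 CPM in streak-marked cells, with a log2 ratio of 0.034 (-0.80 to 0.83), and stood at 40.3 CPM against 10.5 CPM in SOX2-high cells without NANOG (1.84, 1.32 to 2.39). FEZ1, lower in cells without SOX2 as a whole, stood at 9.43 and 10.4 CPM in those of them without the other markers (0.13, -0.60 to 0.86). In HAND1- or ISL1-marked cells it was at 17.3 and 5.50 CPM, from 13 and 12 UMIs (-1.49, -2.58 to -0.37), and in streak-marked cells at 11.8 and 17.2 CPM (0.51, -0.00066 to 1.00).

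IDO1 and TTYH1 were low in streak-marked cells of both libraries but less so in the library labelled GATA3 KO, at 1.83 and 6.56 CPM for IDO1 (log2 ratio 1.42, 0.59 to 2.18) and at 4.07 and 9.02 CPM for TTYH1 (0.98, 0.28 to 1.66). SOX2 stood at 66.2 and 198.0 CPM in the same cells. Among the classes labelled GATA3 KO, HAND1- or ISL1-marked cells had the lowest share with a UMI of IDO1 (1.83%), DRD4 (0.917%) and GDPD2 (2.29%). The same class was lowest for CRB2 (0%), TTYH1 (3.67%), FEZ1 (4.13%) and MFGE8 (78.0%). For ADRA2A the lowest share was 0.649%, in cells without SOX2 or the other markers. For TENT5B and PRICKLE1 the lowest shares in that library were 26.2% and 4.10%, both in streak-marked cells. Whether the low shares are background or low expression was not tested. Without the cells that held a UMI of any of these 5 markers the share of the rise within SOX2 strata was 84.5% for MFGE8, 88.4% for TENT5B and -17.7% for IDO1.

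**Figure D5:**
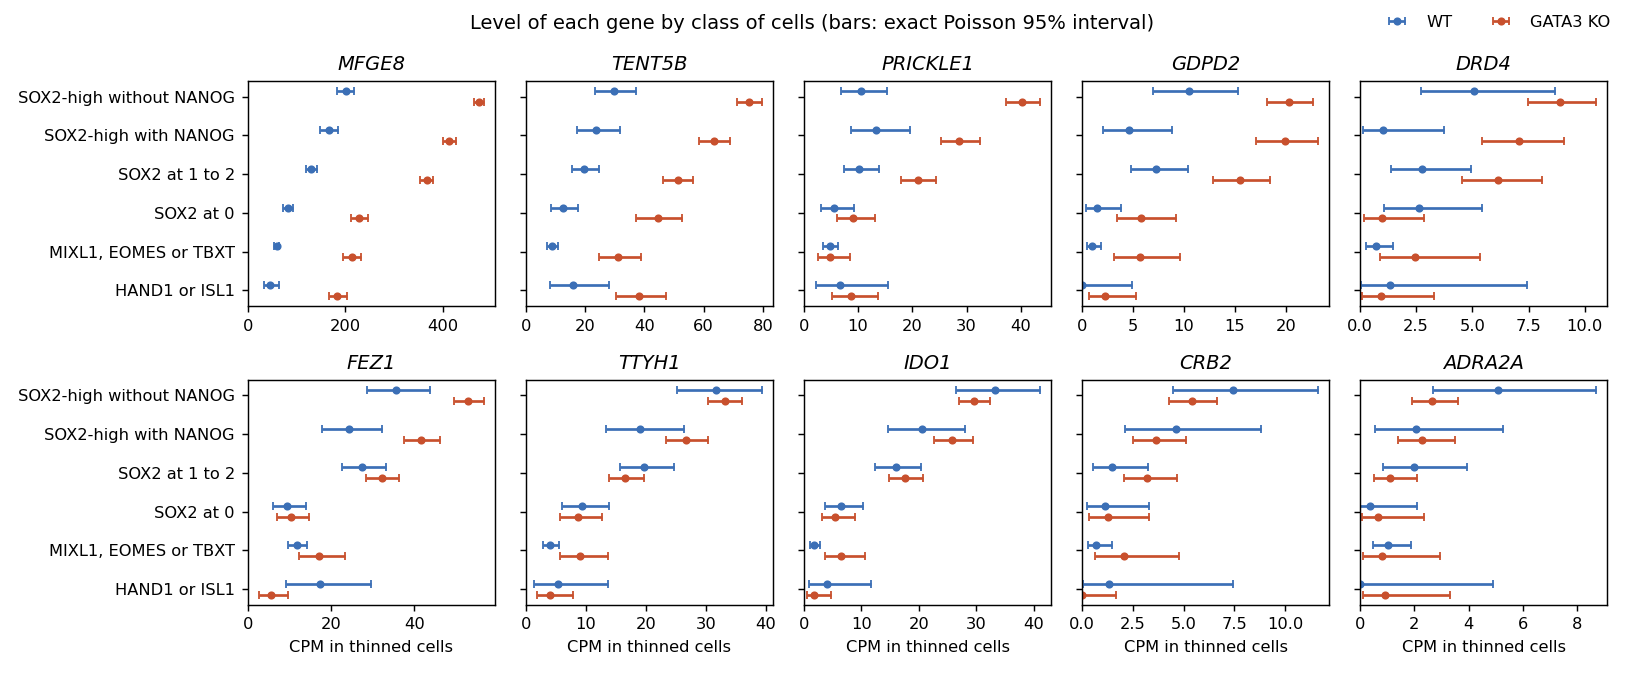
CPM of each gene in thinned cells by class of cells, with exact Poisson 95% intervals and 1 point per library. MFGE8 and TENT5B lie higher in the library labelled GATA3 KO in all 6 classes, while the intervals for CRB2 overlap in all 6.

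Among SOX2-high cells, those with a NANOG UMI held less of most of the genes. In the library labelled GATA3 KO MFGE8 stood at 404.2 CPM with and 470.1 CPM without NANOG (log2 ratio -0.22, -0.27 to -0.16), PRICKLE1 at 27.6 and 39.9 CPM (-0.51, -0.72 to -0.31), FEZ1 at 40.9 and 52.8 CPM (-0.36, -0.54 to -0.19) and TTYH1 at 25.9 and 32.9 CPM (-0.33, -0.55 to -0.12). TENT5B stood at 62.4 and 74.5 CPM there (-0.25, -0.40 to -0.11), and the intervals of the remaining genes, IDO1 among them, spanned 0. In the library labelled WT the level was lower with NANOG for MFGE8, at 148.0 and 190.8 CPM (-0.36, -0.56 to -0.17), for IDO1, at 18.7 and 31.3 CPM (-0.72, -1.23 to -0.21), and for TTYH1, at 17.1 and 29.9 CPM (-0.78, -1.31 to -0.25). It was lower in that library also for DRD4 (-1.64, -2.50 to -0.28), GDPD2 (-1.13, -2.06 to -0.20) and FEZ1 (-0.54, -1.02 to -0.063). PRICKLE1 alone had a positive value there (0.20, -0.53 to 0.93). Splitting the strata by NANOG as well left the share of the rise at equal counts nearly where it was, at 75.0% for MFGE8, 79.5% for TENT5B and 9.16% for IDO1.

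Pairs of the 10 genes were mostly counted in the same cells more often than independence gives. Over pairs with at least 10 cells expected, the observed number was a median of 1.45 times the expected in the library labelled WT (21 pairs) and 1.26 times in the other (42 pairs). Among SOX2-high cells it was 1.15 times (19 pairs, from 0.76 to 1.39) and 1.09 times (42 pairs, from 0.87 to 1.95). Some pairs thus showed no excess there. These medians rest on unlike sets of pairs. MFGE8 was counted in 92.6% of cells labelled GATA3 KO, so pairs with it could hardly exceed 1 there. The medians are therefore not compared. Cells differ in state, and pairs share genes, so these ratios are descriptive.

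Of 5516 genes compared, SFRP1, a secreted inhibitor of WNT signalling, followed 7 of the 10 most closely by the lower of its correlations in the 2 libraries. That value was 0.56 for MFGE8 (over 2519 and 4450 cells), 0.45 for IDO1, 0.40 for FEZ1, 0.39 for TTYH1, 0.29 for GDPD2, 0.28 for TENT5B and 0.21 for CRB2. For PRICKLE1 the closest gene was SOX2 at 0.22. No gene reached 0.2 for DRD4 or ADRA2A, which had 162 and 146 UMIs in the library labelled WT, against 168 for CRB2. TERF1, a telomere protein, came next for MFGE8 (0.49) and IDO1 (0.35).

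Of the listed relatives and pathway partners of the 10 genes, none that reached 5 CPM had a log2 ratio of at least 1. Of all genes of that level 2.43% did, so with lists this short nothing is read from the counts. Among 10 planar polarity genes of at least 5 CPM only PRICKLE1 had a log2 ratio of 1 or more, and 6, PRICKLE1 included, lay above 0. The lowest was VANGL2, a core membrane protein of that system, at 19.4 and 12.1 CPM (-0.64). CELSR2 stood at 6.07 and 10.5 CPM (0.70). None of 9 apical polarity genes of that level passed, though 5 lay above 0, and CRB3 stood at 10.0 and 12.6 CPM (0.30). Of 6 genes of the kynurenine pathway, IDO1 alone passed, with QPRT, which makes a precursor of NAD, at 141.4 and 203.4 CPM (0.52). Of 4 genes for MFGE8, its homologue and integrin partners only MFGE8 passed, and 2, MFGE8 included, lay above 0. The integrin subunit ITGB5 was the lowest, at 88.5 and 54.1 CPM (-0.70). DRD4 was joined by 1 receptor of at least 5 CPM, ADRA2C, at 11.8 and 5.94 CPM (-0.88). TTYH3 stood at 30.5 and 23.3 CPM (-0.37), FEZ2 at 27.4 and 31.2 CPM (0.18) and GDE1 at 46.4 and 61.4 CPM (0.40), while TENT5B had no other family member of that level. No listed gene had a log2 ratio of -1 or less.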

How the data were processed

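Transcripts were counted in 2 single-cell libraries, 1 per group, grouped by the deposited labels. Raw UMI counts per gene and cell barcode were deposited by the authors, who made 10x Genomics 3′ v3 libraries and used Cell Ranger 3.0.2 with GRCh38. Cells with over 7500 detected genes or over 25% mitochondrial counts were removed, limits taken from the methods of the study as either-or. Scrublet (scanpy 1.11.5) called 1 and 2 doublets, too few for a working caller, so none were removed by it, and removing the 116 and 310 highest-scoring cells was an alternative. Cells were thinned at random to 10000 UMIs (seed 11), which left out 346 and 412 shallower cells, so that 1 UMI is worth 100 CPM in a cell.

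CPM carry exact Poisson 95% intervals, shares Clopper-Pearson intervals and ratios the exact binomial interval of both counts. No test was made with 1 library per group. The split of a difference used 8 SOX2 strata with weights midway between libraries. Its computation was checked on simulated counts that took the strata as given, so the misplacing of cells by few SOX2 UMIs was not tested. Positions came from GENCODE 44, and windows from RefSeq.

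Besides the 10 genes, SOX2, NANOG and GATA3, the text names like genes by correlation (up to 3 per gene, at least 20 CPM and 0.2) and listed relatives of at least 5 CPM. VANGL2, CELSR2, CRB3, QPRT, ITGB5, ADRA2C, TTYH3, FEZ2 and GDE1 were picked from those lists as examples after their values were seen. The members and lists were chosen with earlier results of these data known. Alternatives varied the cell filter, doublet removal, scaling (TMM factors of edgeR 4.0.16), pseudocount, thinning, SOX2 limits, weights and strata. Python 3.11.15, numpy 2.4.6 and scipy 1.17.1 were used.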

Additional observations from a re-analysis of the deposited data

Results flagged for a closer look

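The cells removed by the limits on detected genes and mitochondrial counts were left out of the values above. Exceptions were a level of GATA3 and the alternative settings without a limit. Among the removed cells all 10 genes stood higher in the library labelled GATA3 KO. These cells came from the same libraries whose difference chose the 10 genes, so nothing is read from that count. The log2 ratios of the removed cells were 1.75 for MFGE8, 1.82 for TENT5B, 1.75 for GDPD2, 1.56 for PRICKLE1 and 1.66 for DRD4. IDO1 was at 1.09, TTYH1 at 1.05, FEZ1 at 0.96 and CRB2 at 0.93. ADRA2A was at 0.62 (95% interval 0.42 to 0.81), from 0.82 and 1.80 CPM, against 0.22 in the kept cells.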

How the results depend on the processing

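No paired analysis was possible because each group was 1 library. Shares and ratios of genes under 5 CPM are limited by depth, as is the placing of a cell by a few SOX2 UMIs. Of 53 recomputed summary values 35 stayed within the limit set for them, among them the median log2 ratio in SOX2-high cells in all 13 alternatives (0.77 to 1.09). The median log2 ratio between libraries went from 1.26 to 1.53 with a pseudocount of 0.1 CPM and 0.81 with 5 CPM. The median difference in cells with a UMI went from 9.94 points to 17.4 with 20000 UMIs per cell, 5.84 with 5000, 18.8 without thinning and 1.89 for at least 2 UMIs. The difference in SOX2-high cells went from 38.4 points to 42.8 with 20000 UMIs, 33.5 with 5000, 31.9 for at least 1 SOX2 UMI and 22.3 for at least 6. The median share of the rise within SOX2 strata went from 65.3% to 53.9% with 20000 UMIs, 58.2% with another seed, 45.6% with the weights of the library labelled WT, 83.1% with those of the other, 76.0% with 2 strata, 49.1% with full-depth SOX2 counts and 78.2% without marked cells, the last 2 added after the data were seen. By gene it ranged from 67.4 to 84.5% for MFGE8, 72.7 to 88.4% for TENT5B, 55.1 to 83.9% for GDPD2, 46.4 to 84.1% for PRICKLE1, 45.6 to 95.1% for DRD4, 12.6 to 63.4% for FEZ1, 5.43 to 65.6% for TTYH1 and -29.4 to 37.6% for IDO1. Genes with a log2 ratio of at least 1 numbered 242, or 133 with a minimum of 20 CPM. Among ratios and shares that the reported setting placed beyond counting error the sign turned for CRB2 in cells with at least 2 UMIs (-0.11 points) and for ADRA2A between libraries (a log2 ratio of -0.041 with mean per-cell CPM). Signs of values within counting error turned too, for ADRA2A in cells with a UMI (-0.13 points with 5000 UMIs or at least 2 UMIs), for CRB2 and IDO1 in SOX2-high cells, for IDO1 within strata (-29.4 and -17.7%) and for CRB2 within strata (up to 40.8%). TTYH1 passed 50% within strata with 5000 UMIs, FEZ1 did in 4 alternatives, and PRICKLE1 and DRD4 fell under it in 2 and 1. The cause of these shifts was not tested.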
